A study of Mus musculus with 66 samples.

Results

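The regions described here were stretches of chr1-19 that carried tri-methylation of lysine 9 of histone H3 (H3K9me3) in gene deserts, far from any protein-coding gene, in the prefrontal cortex (PFC) of adolescent mice. They were selected on measured values: runs of 200-bp windows covered by a listed H3K9me3 island in at least 18 of the 22 H3K9me3 libraries, of 200 bp to under 20 kb, that overlapped no protein-coding gene body and lay over 500 kb from every protein-coding gene start. Of 42444 such consensus regions in the genome, 6607 met the whole rule and are called members below. A further 25588 lay between genes within 500 kb of a gene start, 7107 overlapped a gene body, 27 were 20 kb or longer, and 3115 lay on the sex chromosomes. Because the islands of these 22 libraries chose the members, their H3K9me3 levels are given as a description and without a test.

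The mice were of the inbred strain DBA/2J and received either water or ethanol by gavage. Each dose of ethanol was 4 g/kg (25% w/v), the doses were spread over postnatal days 29 to 42 with pauses between them, and tissue was collected 24 h after dosing ended. Each library came from a pool of 3 mice of 1 sex and treatment, with 6 ethanol and 5 water pools per sex, and H3K36me3 and input libraries were made from the same pools. The pools held whole tissue, so that a smaller share of marked cells and a lower level per cell cannot be told apart.

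H3K9me3 is the histone mark of constitutive heterochromatin, and proteins of the HP1 family bind it and compact the chromatin. Outside the centromeres, its main targets in mammals are transposable elements, among them LINE-1 retrotransposons, which copy themselves through RNA and encode their own reverse transcriptase, and endogenous retroviruses. In mature neurons the mark also covers clusters of genes that the cell keeps silent. H3K36me3, the other mark of the series, is laid down over the bodies of transcribed genes and serves here as a comparison.

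The members shared sequence with each other. Words of 31 bases were counted on both strands of the members, and the commonest was found in 1977 of the 6607 members (29.9%). To show how alike these members are, 231 bases around that word are printed below for the first 4 members of the comparisons of treatment that held it with its flanks. The sequences come from the RefSeq copy of GRCm38.p6 and read 5′ to 3′ in the direction of the word, which is the plus strand for chr4 and the minus strand for the others. Capitals mark the word.
chr4:16704603-16704833: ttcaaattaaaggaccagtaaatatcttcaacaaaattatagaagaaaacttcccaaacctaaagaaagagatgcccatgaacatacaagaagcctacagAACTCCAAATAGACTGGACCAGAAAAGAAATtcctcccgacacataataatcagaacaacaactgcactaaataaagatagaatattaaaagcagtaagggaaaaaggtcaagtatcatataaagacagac
chr5:61278626-61278856: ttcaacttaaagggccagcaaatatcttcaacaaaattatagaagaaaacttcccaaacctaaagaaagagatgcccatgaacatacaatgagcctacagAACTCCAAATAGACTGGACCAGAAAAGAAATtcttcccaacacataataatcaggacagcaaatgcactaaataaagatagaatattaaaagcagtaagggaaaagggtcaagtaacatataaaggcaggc
chr5:58878417-58878647: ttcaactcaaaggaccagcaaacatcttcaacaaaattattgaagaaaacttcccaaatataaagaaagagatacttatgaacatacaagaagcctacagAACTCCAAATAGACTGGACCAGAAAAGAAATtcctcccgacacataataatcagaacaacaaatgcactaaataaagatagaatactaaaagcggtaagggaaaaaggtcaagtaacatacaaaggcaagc
chr5:6401293-6401523: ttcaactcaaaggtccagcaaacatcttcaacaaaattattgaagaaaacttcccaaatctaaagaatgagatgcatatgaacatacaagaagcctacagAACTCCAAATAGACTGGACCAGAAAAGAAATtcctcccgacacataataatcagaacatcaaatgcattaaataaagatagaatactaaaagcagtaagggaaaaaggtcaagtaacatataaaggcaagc

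Between these 4 stretches, each of the 6 pairs was equal at 91.3 to 96.1% of the 231 positions without any gap. Over all 1983 copies of the word in members, a copy shared a median of 95.2% of its 231 bases with the base commonest at each position, and 1333 copies (67.2%) shared at least 95%. The lowest agreement at a single position outside the word was 48.4%. The flanks were thus alike well beyond the word that picked them.

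A further 6 words were then taken 1 at a time, each being the word found in most of the members that held none of the words chosen before it. The 7 words are printed in capitals because each is the shared part itself, on the strand that sorts first in the alphabet.
word 1: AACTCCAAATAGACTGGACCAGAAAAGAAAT
word 2: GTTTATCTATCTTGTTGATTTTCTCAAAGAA
word 3: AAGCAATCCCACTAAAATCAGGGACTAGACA
word 4: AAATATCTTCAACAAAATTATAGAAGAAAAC
word 5: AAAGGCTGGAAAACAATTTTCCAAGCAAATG
word 6: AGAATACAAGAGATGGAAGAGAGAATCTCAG
word 7: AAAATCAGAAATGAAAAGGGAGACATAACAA

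Together the 7 words were found in 3969 members (60.1%), and 5894 members (89.2%) held at least 1 word that occurred in 100 or more members. In a median member, 67.5% of the 31-base words also occurred in another member, and 77 members shared none. The words kept fixed places relative to each other. Where a member held word 1 as well, word 6 lay at a median of -278 bp, word 4 at -81 bp, word 5 at 632 bp, word 2 at 1559 bp, word 7 at 1637 bp and word 3 at 2409 bp from it. Between 94.0% (word 3) and 99.6% (word 6) of the copies lay within 50 bp of these medians. Word 2 was read on the opposite strand in all but 0.192% of its copies, and each of the others on the same strand in at least 99.5%. Members with word 1 and another word thus carried them in a fixed order and spacing. The repeat family was not analysed here.

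**Figure D1:**
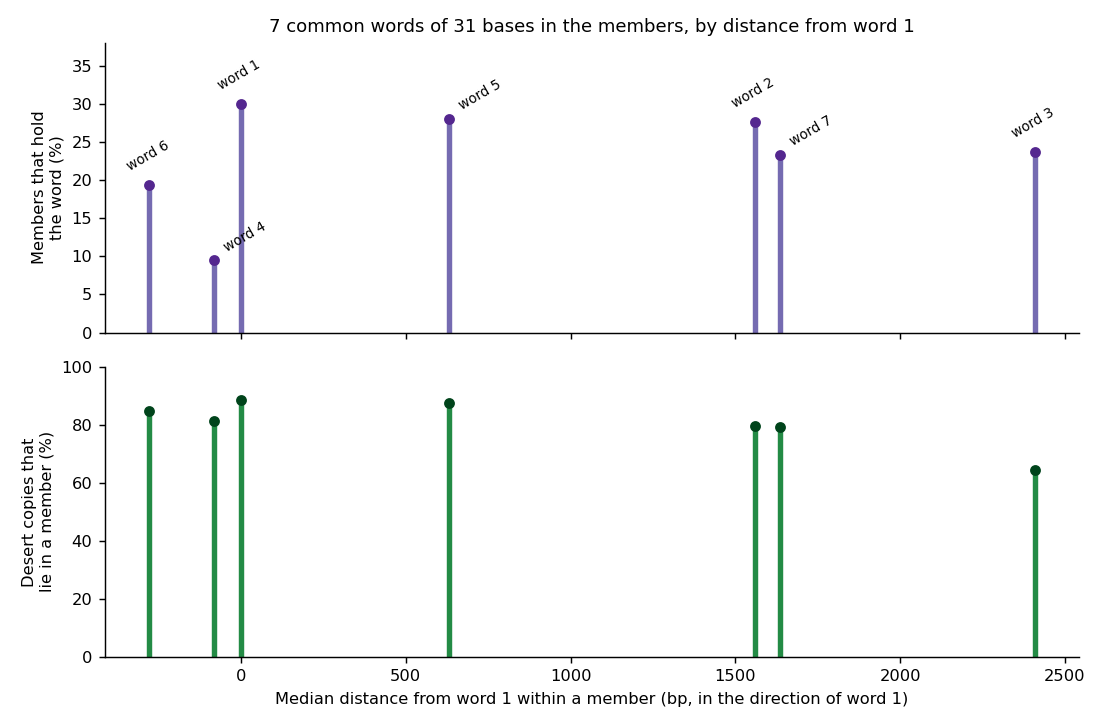
The 7 words by their median distance from word 1 within members (horizontal axis, bp): the share of the 6607 members that hold each word (upper panel, %) and the share of a word's copies in gene deserts that lie in a member (lower panel, %). Word 1 was in 29.9% of members, and the share of desert copies in members was 88.7% for word 1 and 64.5% for word 3, the lowest.

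For each of the 7 words, which were picked for being common in members, most copies in the deserts lay inside members. Word 1 occurred 2236 times in gene deserts of chr1-19 and 1983 of these copies (88.7%) were in members. For words 4, 5, 6, 2 and 7 the share was 81.4, 87.5, 85.0, 79.7 and 79.3%. It was lower, at 64.5%, for word 3, which had the most copies in deserts (2439) and lay farthest from word 1. Stretches of 2 kb (the median member length) of desert without any consensus region, of which there were 113429, held word 1 in 0.165% and word 3 in 0.540%. The intergenic regions near genes held word 1 in 26.9% and the regions over gene bodies in 29.2%, shares close to that of the members.

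Most of the sequence of the members is marked as repeated or low in complexity (soft-masked) in the reference. The masked share of a member had a median of 99.4%, against 30.5% in the desert stretches without a region, and 5499 members (83.2%) were masked over at least 90% of their length. The same cut was passed by 4.97% of the desert stretches, by 76.4% of intergenic regions near genes and by 78.4% of gene-body regions. GC content hardly set the members apart, with medians of 37.5% in members and 37.4% in the desert stretches. The ratio of observed to expected CpG was 0.153 in members (5th to 95th percentile 0.0326 to 0.273) and 0.124 in the desert stretches (0.0478 to 0.270). An open frame, a run of codons without a stop codon, of at least 500 codons was present in 1005 members (15.2%), in 14.3% of intergenic regions near genes and in 0.645% of the desert stretches, which are limited to 2 kb. Reads and reference differ in strain, since GRCm38 is the genome of C57BL/6J, and sequence that is particular to DBA/2J is not in it. The member farthest from any gene start, chr14:91169201-91174400, was masked over its whole 5200 bp and had an open frame of 1300 codons.

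Lengths ranged from 200 to 17600 bp with a median of 2000 bp, and 3200 bp was the commonest (431 members), followed by 1200 bp (417). Among members of 200 to 800 bp, 18.8% held at least 1 of the 7 words, against 46.6% at 1000 to 1800 bp, 85.8% at 2800 to 3600 bp 93.3% at 3800 to 5200 bp and 88.4% of the 121 members of 5400 bp or more. The median number of the words in a member rose from 0 in the shortest to 4 in the longest class. The median fold over input stayed between 1.45 and 1.49 in all 6 length classes.

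**Figure D2:**
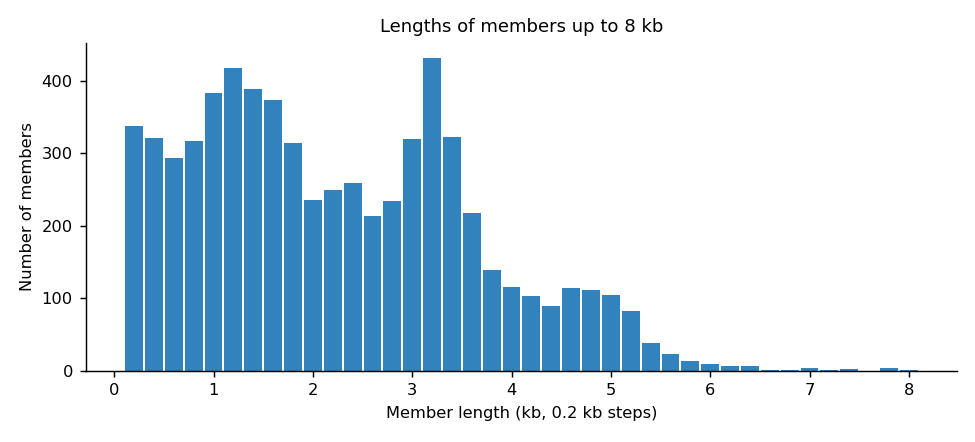
Number of members (vertical axis) by length in steps of 0.2 kb (horizontal axis), for members up to 8 kb. The counts have peaks at 1.2 kb (417 members) and 3.2 kb (431 members), and few members are longer than 5.4 kb.

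The members lay in 294 of the 343 gene deserts, which are unbroken stretches of windows over 500 kb from a gene start and outside gene bodies. The deserts held 248 Mb of known sequence, of which windows in consensus regions made up 6.04%, against 3.60% of the rest of chr1-19. On chromosome 7 it was the other way round, with 4.28% of the deserts and 6.06% of the rest covered. The masked share of the whole sequence was 41.7% in deserts and 32.5% elsewhere. Chromosome 1 had the most members (798), and chromosome 19 the fewest (47). Per Mb of desert, the number of members ranged from 16.97 on chromosome 19 to 35.4 on chromosome 6. A desert with members held a median of 12.5 of them, and the fullest, chr1:100486001-104268400, held 146.

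The distance of members from the nearest gene start had a median of 822506 bp and reached 2697805 bp. The 3 farthest members, chr14:91169201-91174400, chr14:91168001-91168800 and chr14:91162401-91165800, lay nearest to the start of Pcdh20, which encodes a protocadherin, a cell adhesion protein. Their median folds over input were 1.485, 1.4955 and 1.5264. The first 2 had equal lowest folds with water (1.06 in females and 1.236 in males), as neighbouring members can share an island. The values of these 2 are not independent. At the limit of 500 kb, the members just inside were chr11:12965001-12969600 (500041 bp from Cobl, median fold 1.498) and chr8:8160001-8161200 (500042 bp from Efnb2, median fold 1.104). The regions just outside were chr14:52995601-52999400 (499852 bp from Olfr1507, 1.24) and chr2:138756401-138757600 (499836 bp from Btbd3, 1.30). The 641 members at 500 to 550 kb had a median fold of 1.47 and the 770 intergenic regions at 450 to 500 kb one of 1.45.

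A desert in this sense is free of protein-coding genes and not of every annotated gene. In GENCODE vM21, 6163 members (93.3%) overlapped no annotated gene, 335 overlapped a long non-coding RNA gene and 77 a pseudogene. Another 25 members, all on chromosome 12, overlapped gene segments of the immunoglobulin heavy chain, whose annotation class is not protein-coding. These lay between chr12:114048401 and chr12:115312600 and had median folds of 1.89 to 2.44. When every annotated gene was taken into account, only 19 regions met the distance limit.

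Each library had a listed island over most members, from 5250 in female water replicate 4 to 6592 in male ethanol replicate 4. The reads of a library inside its islands numbered 5.73 to 14.2 M, with the highest total in male ethanol replicate 4, and 6.60 to 8.33% of them fell in members. Listed islands include ones that do not pass a false discovery rate (FDR), and at an FDR of 0.01 the number of members with an island ranged from 4045 to 6420 in 21 libraries. It was 1234 in female water replicate 2. That library also had the lowest median fold of members over input, 1.13, where the others ranged from 1.37 to 1.66. It stood apart in the same way over all its islands, of which 30.96% passed an FDR of 0.01, the lowest share of the 22 libraries.

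By group, the number of members with an island at an FDR of 0.01 was 5749, 5014, 5513, 4686 and 4771 in the male water pools, and from 4542 (median 5539) to 6420 in male ethanol. In females it was 4802, 1234, 5657, 4045 and 5621 with water and from 4748 (median 5263) to 5590 with ethanol. The groups overlapped in both sexes. Median folds of the members were 1.55, 1.39, 1.497, 1.37 and 1.39 with water and 1.39 to 1.66 (median 1.47) with ethanol in males. In females they were 1.42, 1.13, 1.52, 1.45 and 1.54 with water and 1.41 to 1.53 (median 1.46) with ethanol, so these ranges overlapped too.

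**Figure D3:**
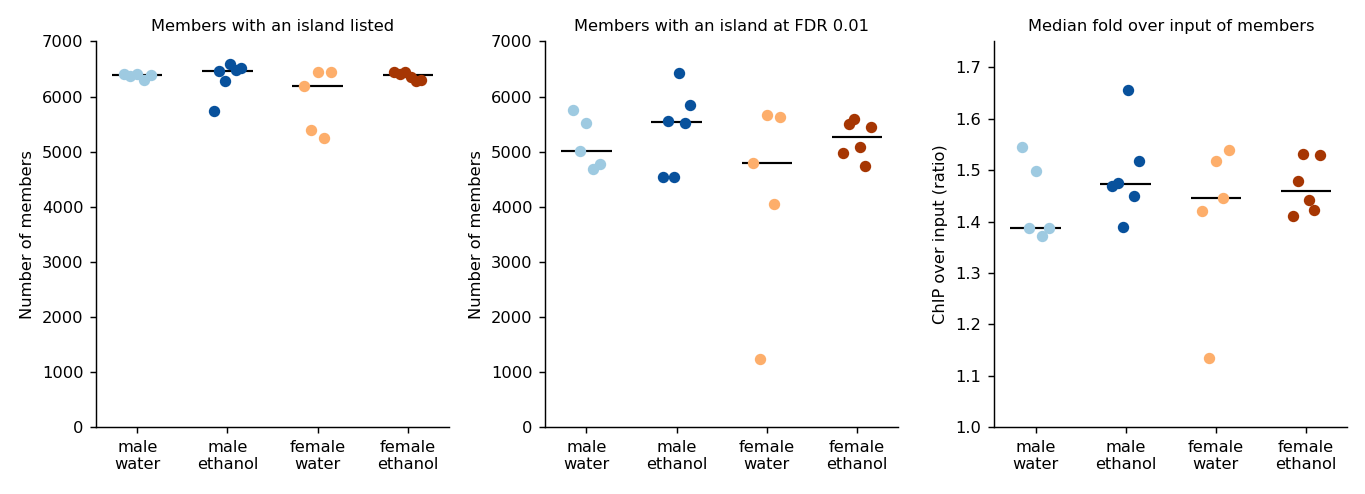
Each point is 1 library, by sex and treatment (5 water and 6 ethanol pools per sex), and each line a group median: members with a listed H3K9me3 island (left), members with an island at an FDR of 0.01 (middle) and the median fold over input of the members (right, axis from 1). Female water replicate 2 is the lowest point of the middle and right panels (1234 members, fold 1.13), and male ethanol replicate 4 the highest (6420 members, fold 1.66).

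The median fold of a member over its libraries was 1.46 at the middle member and 1.26 to 1.70 from the 5th to the 95th percentile. An island was listed in all 22 libraries for 3476 members (52.6%) and in 18, the fewest allowed, for 807. At an FDR of 0.01, 290 members had an island in all 22 libraries, 6103 (92.4%) in at least 11, and 7 in none. In each of the 22 libraries the median fold of members was below that of intergenic regions near genes and below that of the 27 regions of 20 kb or more. For example, female water replicate 3 had 1.52 in members, 1.58 near genes and 2.19 in the regions of 20 kb or more. Against gene-body regions the members were lower in 6 of 22 libraries.

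Only 186 members had a median fold of 2 or more, and 175 of them (94.1%) lay in 3 deserts of chromosome 12, which were singled out after their values were seen. The first, chr12:19014601-19454400, had 22 members with a median fold of 2.42. The second, chr12:21917801-23280200, had 77 members with a median fold of 2.12. The third, chr12:114044001-115547600, had 133 members with a median fold of 2.16, and holds 118 annotated antigen receptor segments of the variable part of the immunoglobulin heavy chain locus. Among the 166 deserts of at least 10 members, these 3 were the only ones at 2 or more, and the next, chr3:4008201-4718400, had a median fold of 1.58. The 232 members of the 3 deserts had a higher median fold than the other 6375 members in each of the 22 libraries. Their library medians ranged from 1.67 to 2.42 and those of the others from 1.13 to 1.65. The desert chr6:68035801-70292200 holds 131 antigen receptor segments too, and its 108 members had a median fold of 1.53.

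**Figure D4:**
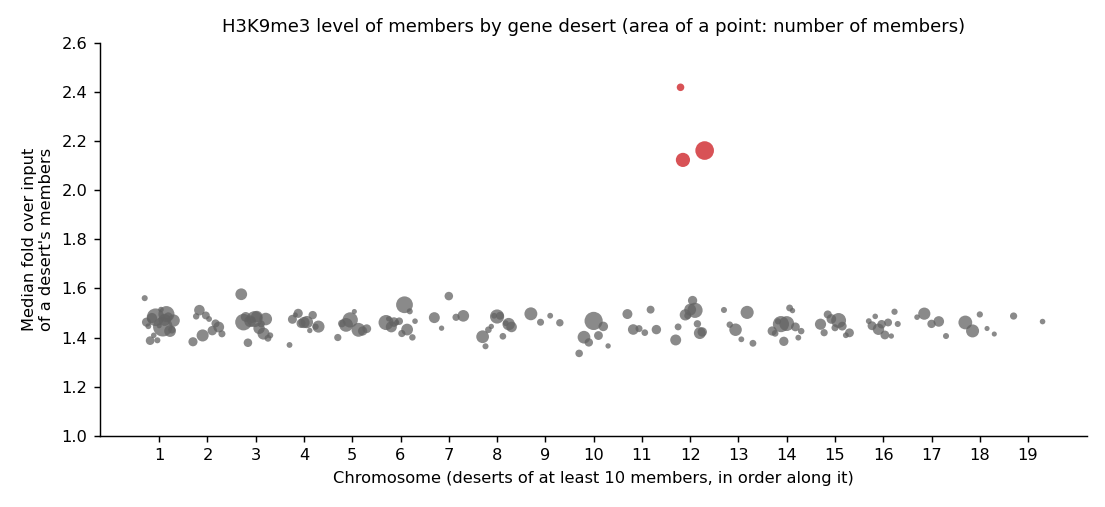
Median fold over input of the members of each of the 166 gene deserts with at least 10 members, by chromosome (horizontal axis) and in order along it, with the area of a point in proportion to the number of members. The 3 deserts of chromosome 12 in red have medians of 2.12 to 2.42, and each of the others lies between 1.34 and 1.58.

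These chr12 members were masked over a median of 48.2% of their length, against 99.5% in the other members, and 10.3% of them held 1 of the 7 words, against 61.9%. Input reads per kb had a median of 18.5 in the 3 deserts and 22.9 elsewhere, and ChIP reads per kb were 42.0 and 36.2, so both parts of the ratio differed. A member of high fold is printed whole to show such sequence, from the plus strand of GRCm38.p6 in RefSeq, with capitals for bases that are not masked. Its median fold was 2.95.
chr12:22734201-22734400: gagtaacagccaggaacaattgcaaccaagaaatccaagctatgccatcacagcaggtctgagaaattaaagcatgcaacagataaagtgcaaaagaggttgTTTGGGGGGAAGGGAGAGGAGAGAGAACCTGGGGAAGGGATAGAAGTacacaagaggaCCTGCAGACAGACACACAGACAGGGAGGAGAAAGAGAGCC

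It held none of the 7 words. Its fold was 2.07 to 3.69 in the 4 female water pools with an island, 1.82 to 4.18 in female ethanol, 2.02 to 4.06 in male water and 2.50 to 4.92 in the 5 male ethanol pools with an island. The groups overlapped. Other members of high fold were chr12:22544001-22544400 (2.95), chr12:115149201-115149400 (2.79) and chr12:19207201-19208400 (2.75), each in 1 of the 3 deserts of chromosome 12. Outside these deserts, 11 members had a median fold of 2 or more. At the other end, 21 members had a median fold below 1, with a median length of 400 bp and a median of 70.9 input reads per kb. The lowest was at 0.0966.

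H3K36me3 was compared in the same pools. A listed H3K36me3 island overlapped 2398 to 4709 members per library, but only 190 to 2893 at an FDR of 0.01. The median fold of each mark was taken over the members with a listed island of that mark in a library. For H3K36me3 it was below that of H3K9me3 in 21 of 22 libraries, and ranged from 1.04 to 1.57. The members were chosen for their H3K9me3 islands, so this order is a description. A median member had an H3K36me3 island at an FDR of 0.01 in 2 libraries, 957 members had it in none, and 287 (4.34%) in at least 11. As a check of the H3K36me3 lists on tissue markers, islands were listed over the neuronal gene Rbfox3 in 19 and over Syt1 in 18 of 22 libraries, but over the neuronal genes Camk2a in 7, Slc17a7 in 5, Snap25 in 3 and Gad1 in 1. Of the microglial genes Cx3cr1 had one in 17 and Csf1r in 2, of the myelin genes Mbp had one in 12 and Mobp in 3, and of the astrocyte genes Slc1a3 had one in 7 and Aqp4 in 1. The astrocyte gene Gfap and the oligodendrocyte genes Mog and Mag had an island in none, so the lists covered only some of the marker genes. At an FDR of 0.01 the counts were 11 for Rbfox3 and Cx3cr1, 7 for Syt1 and Camk2a, and 5 for Mbp and Slc1a3. They were 4 for Slc17a7, 3 for Snap25, 2 for Mobp, 1 for Gad1 and Aqp4, and 0 for Csf1r. A median member had a listed H3K36me3 island in 13 libraries, and 3796 members (57.5%) in at least 11. Camk2a, Slc17a7, Snap25 and Gad1 had fewer than that median.

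At an FDR of 0.01, 48 of the 232 members of the chr12 deserts (20.7%) had an H3K36me3 island in at least 11 libraries. Elsewhere it was 239 of 6375 (3.75%). The 3 deserts did not stand apart in the median number of libraries with such an island. It was 6, 4 and 4 in order of position, and 7 in chr8:41917201-42641400. Over all members this median rose with length, from 1 at 200 to 800 bp to 6 at 5400 bp or more. Length was not taken into account here. The 2 members with such islands in most libraries (21 of 22) were both in the chr12 deserts. These were chr12:23260201-23266600, which overlaps the annotated gene Gm20472 (median H3K36me3 fold 1.80, H3K9me3 fold 2.37), and chr12:114829201-114843400, which overlaps the immunoglobulin segments Ighv1-31 and Ighv1-32 (1.36 and 2.12). Both marks were compared with the same input of a pool.

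The question of the study was whether ethanol changed H3K9me3 in males and in females. Reads per member were tested with the edgeR quasi-likelihood test in a fit over all consensus regions, with Benjamini-Hochberg adjustment over all of them. A region entered where each of the 11 libraries of a sex had an island. In males that was so for 4686 members, of which 4651 passed the filter on low counts. The tested members were mostly the longer ones, since only 218 of the 1268 members of 200 to 800 bp were among them.

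In males, 136 of 4651 members (2.92%) had an unadjusted p of 0.05 or lower, the threshold of the study, against 3.17% of all 30060 regions tested. Of these, 76 were higher and 60 lower with ethanol, and no member or other region had an adjusted p of 0.05 or lower. The median log2 fold change over the tested members was -0.0021, as over all regions (-0.0024). In females, 171 of 3839 members (4.45%) had an unadjusted p of 0.05 or lower, against 4.06% of all 25864 regions. Of these, 90 were higher and 81 lower with ethanol, and again none passed adjustment (smallest adjusted p of a member 0.977). DESeq2 called no member after adjustment in either sex, with 117 of 4651 and 103 of 3839 members at an unadjusted p of 0.05 or lower. Over all regions it had 802 of 30060 and 699 of 25862 at that threshold, and 1 region in each sex passed adjustment. Without female water replicate 2 the female count was 179 of 4248 members, and without male ethanol replicate 4 the male count was 133 of 4653. Counts over all regions are not given for these 2 fits. In the other fits the shares of members at the threshold lay close to those of all regions.

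Members without an island in some pool of a sex were not in these counts. In females, 1620 members had an island in all ethanol but not in all water pools, and 326 the other way round. Most islands missing in female pools were those of water replicates 4 (1357 members without an island) and 2 (1210). In males, 568 members had an island in all ethanol but not in all water pools and 924 the other way round. Male ethanol replicate 1 lacked the most (863). These counts of islands present or missing were made for members alone, so they cannot be set against all regions. With members in at least 8 libraries of a sex tested and a missing island counted as 0, 133 of 6231 members were at the unadjusted threshold in females, 87 of them higher with ethanol. Over all 40190 regions tested it was 830, of which 500 were higher. The median log2 fold change was then 0.060 over members and 0.053 over all regions. In males this gave 117 of 6279 members, 62 of them higher, beside 810 of 40215 regions, 417 of them higher, and no member passed adjustment in either sex.

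The directions of these counts depended on the scaling. With ChIP over input reads (limma, no scaling between libraries), the median of all regions moved by 0.18 on the log2 scale in males, and 276 of 278 members and 1773 of 1783 of all regions were then higher with ethanol. With the library totals of the study, the median of all regions moved by 0.11 in females and 286 of 287 members and 1981 of 2030 of all regions were higher. In males, 99 of 144 members were higher without TMM factors and 77 of 105 with those totals, beside 633 of 965 and 526 of 723 over all regions. In females, DESeq2 had 65 of 103 members higher and ChIP over input 97 of 123, beside 399 of 699 and 685 of 866 over all regions. Under no scaling did a member pass adjustment for treatment.

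Input reads of the same islands, tested in place of the ChIP reads, had 167 of 4605 members at the unadjusted threshold in males and 192 of 3827 in females. Over all regions these input counts were 1101 of 29719 and 1117 of 25729. Across the 22 pools, after taking out group means, the log2 ChIP and input reads of a member had a median Pearson correlation of 0.62 over the 3476 members with an island in all libraries, and it was above 0 in 3416 of them. Both are counted inside the same islands, and ChIP reads also had a median correlation of 0.62 with the length of the member that the islands of a library covered. In the 56 members covered whole in each library, the median correlation of ChIP and input reads was 0.67, and in the other 3420 it was 0.62. The SD between pools of a group was a median of 0.19 for ChIP, 0.22 for input and 0.18 for their difference, on the log2 scale. For ChIP it was 0.40 in members of 200 to 800 bp (36 members, median 37.3 reads) and 0.15 in those of 3800 to 5200 bp (median 177.5 reads).

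Of the 4 members of smallest p in males, 3 were lower with ethanol and 1 was higher. Values are reads of a pool scaled to its reads in all tested regions with TMM factors (CPM). chr10:55500401-55503000, 604 kb from Msl3l2, had 27.1, 27.7, 33.7, 34.2 and 35.8 CPM in the water pools. With ethanol it had from 20.8 (median 23.8) to 26.7 CPM. The groups did not overlap, and the log2 fold change was -0.40 ± 0.096 (SE; edgeR unadjusted p = 0.000752, adjusted p = 1.00). Its input reads had a log2 fold change of -0.18 (unadjusted p = 0.184, edgeR).

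chr4:16704201-16705600, 541 kb from Ripk2, which encodes a kinase of innate immune signalling, had 13.6, 13.9, 15.96, 17.1 and 13.249 CPM with water. With ethanol it had 9.45 (median 10.7) to 13.245 CPM, so the groups all but touched, and the log2 fold change was -0.44 ± 0.12. chr5:58876001-58879200, 1158 kb from the protocadherin gene Pcdh7, had 30.2, 35.8, 33.7, 38.6 and 37.8 CPM with water and from 21.3 (median 26.9) to 32.2 CPM with ethanol. These groups overlapped, and the log2 fold change was -0.37 ± 0.10, beside -0.31 for its input reads. The member that was higher with ethanol, chr5:61274401-61279400, lay 529 kb from G6pd2. It had 31.2, 35.6, 35.8, 35.5 and 37.4 CPM with water and 38.6 (median 42.0) to 47.2 CPM with ethanol, without overlap (log2 fold change 0.27 ± 0.072). Its input reads differed by 0.21 in the same direction. For these 3 members the unadjusted p was 0.00206, 0.00213 and 0.00207, and the adjusted p 1.00 (edgeR). These 4 are the extremes of 4651 tested members. With ChIP over input, where the median of all regions moved by 0.18, the log2 difference was -0.062 at chr10:55500401-55503000, -0.030 at chr4:16704201-16705600, 0.14 at chr5:58876001-58879200 and 0.25 at chr5:61274401-61279400.

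In females, chr5:6399001-6402000 had the smallest p. It lay 650 kb from Steap1, which encodes a metalloreductase. Its values were 38.4, 38.5, 40.2, 37.9 and 39.1 CPM with water and 30.8 (median 31.4) to 34.5 CPM with ethanol. The groups were well apart, with a log2 fold change of -0.29 ± 0.063 (edgeR unadjusted p = 0.000403, adjusted p = 0.977). Its input reads were lower by more, at -0.44 (unadjusted p = 0.00161, edgeR), and the ratio of ChIP to input was higher with ethanol, at 0.20.

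chr5:56285001-56286600, 1431 kb from Pcdh7, had 11.6, 13.7, 15.9, 11.7 and 16.8 CPM with water and 17.4 (median 19.5) to 21.05 CPM with ethanol, without overlap (log2 fold change 0.48 ± 0.12). chr4:69564801-69569600, 610 kb from Brinp1, had 52.1, 61.7, 52.9, 61.3 and 50.7 CPM with water and 46.0 (median 47.4) to 48.4 CPM with ethanol, again without overlap (-0.24 ± 0.066). Its highest water value was that of replicate 2. chr11:13208601-13211600, 744 kb from the actin nucleator gene Cobl, had 25.8, 11.1, 20.6, 13.7 and 15.7 CPM with water and 23.2 (median 26.7) to 30.0 CPM with ethanol. One water pool lay within the ethanol range, and the log2 fold change was 0.62 ± 0.17, beside 0.56 for its input reads. Without female water replicate 2, whose value was the lowest, it was 0.50. With ChIP over input the log2 difference was 0.29, -0.0097 and 0.069 in these 3, where the median of all regions was 0.043, none at the unadjusted threshold (limma). The unadjusted p of these 3 was 0.00107, 0.00271 and 0.00299 and the adjusted p 0.977 (edgeR).

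**Figure D5:**
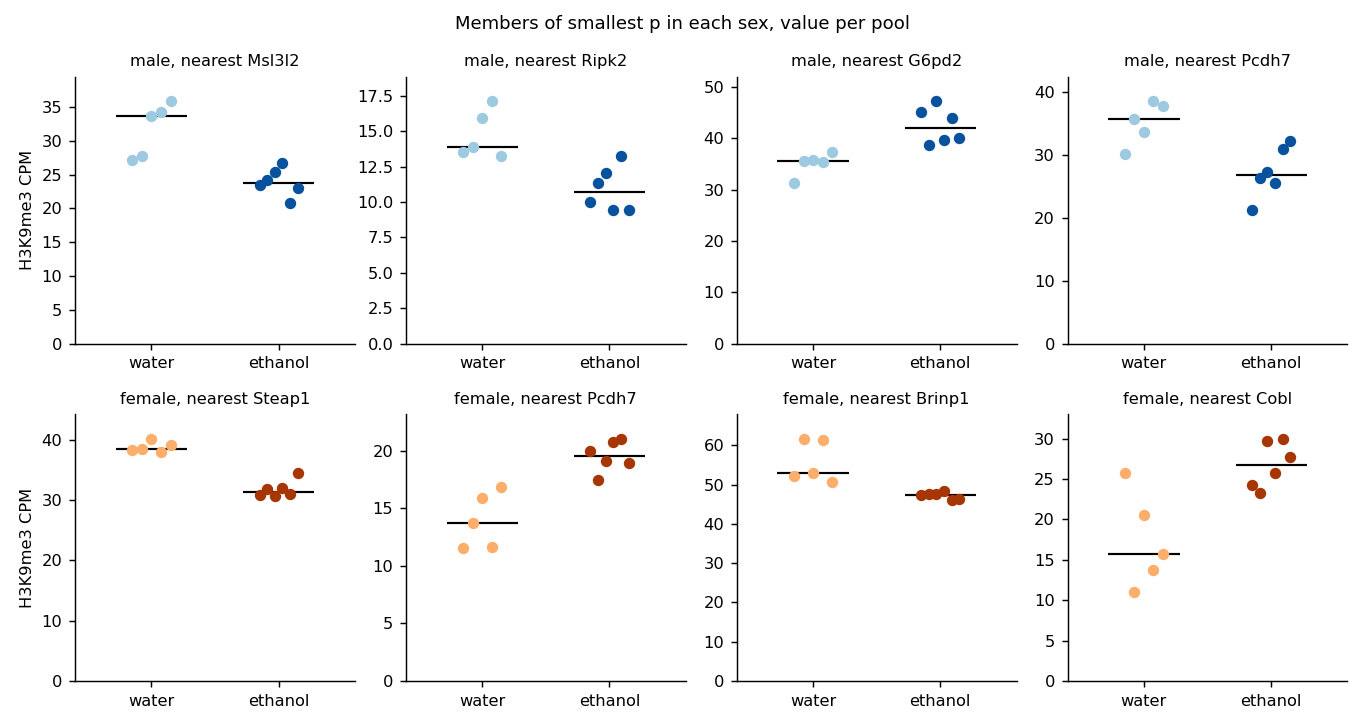
H3K9me3 level (CPM, axis from 0) of the 4 members of smallest p in the male fit (upper row) and in the female fit (lower row), titled by the nearest protein-coding gene. Each point is 1 pool, with 5 water and 6 ethanol pools, and each line a group median. The groups are apart in the members nearest Msl3l2, G6pd2, Steap1, Brinp1 and Pcdh7 (female), all but touch at Ripk2, and overlap at Pcdh7 (male) and Cobl. No adjusted p was below 0.977.

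Of the 1977 members with word 1, 70 of 1858 tested (3.77%) in males and 68 of 1729 (3.93%) in females were at the unadjusted threshold. Of the members with none of the 7 words these were 31 of 1231 (2.52%) and 41 of 809 (5.07%), and the difference between the lists was not tested. In the 3 deserts of chromosome 12, 7 of 172 tested members (4.07%) in males and 7 of 139 (5.04%) in females had an unadjusted p of 0.05 or lower, beside 3.17% and 4.06% of all regions. Of 3476 members tested in both sexes, 5 were at that threshold in both, which is 4.55% of the male list of 110 and 3.18% of the female list of 157. Over all these members, 4.52% were at the threshold in females and 3.165% in males. Of the 5, 4 had the same sign in both sexes.

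Whether the ethanol difference itself differed between the sexes was tested as an interaction. Of 3476 members, 146 (4.20%) had an unadjusted p of 0.05 or lower, against 4.02% of 22943 regions, and none passed adjustment. The smallest p was that of chr8:97114401-97115800, 1226 kb from Got2, which encodes a mitochondrial aminotransferase. In males it had 26.4, 18.8, 17.3, 21.3 and 20.1 CPM with water and 14.3 (median 16.2) to 22.3 with ethanol. In females it had 18.1, 15.5, 15.8, 19.3 and 15.9 CPM with water and 15.9 (median 22.6) to 24.5 with ethanol. The medians moved in opposite directions, the groups overlapped in both sexes, and the interaction was 0.66 ± 0.19 (log2; edgeR unadjusted p = 0.00178, adjusted p = 1.00). The next was chr14:83710401-83712800, 731 kb from Pcdh17, with an interaction of 0.46 ± 0.14 (unadjusted p = 0.00275, adjusted p = 1.00, edgeR). Its female values were 20.9, 22.1, 19.9, 17.2 and 24.9 CPM with water and 22.2 (median 27.5) to 30.8 with ethanol, and its male values 27.0 to 32.5 with water and 24.3 to 28.4 with ethanol. Again the 2 treatments overlapped within each sex. With ChIP over input the interaction was 0.053 at the first and 0.16 at the second of these members, where the median of all regions was -0.13.

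The sexes were also compared with each other. On the 3476 members, 172 had an unadjusted p of 0.05 or lower, of which 59 were higher in females and 113 in males. Of intergenic regions near genes 227 of 776, and of gene-body regions 78 of 194, were higher in females. The share of members, 4.95%, compares with 9.31% over all 22943 regions, where 993 of the 2137 regions at the threshold lay on the sex chromosomes, and with 5.35% over the 21398 regions of chr1-19. After adjustment over all regions 1 member was called, against 3.33% of all regions and 0.0841% of those on chr1-19. This was chr6:74384401-74389000, 915 kb from 4931417E11Rik, with 46.4 (median 50.5) to 54.6 CPM in the 11 male and 39.7 (median 45.3) to 50.7 CPM in the 11 female pools. The sexes overlapped, and the log2 fold change of females over males was -0.16 ± 0.045 (edgeR adjusted p = 0.0373). Adjusted over chr1-19 alone, its p was 0.894 and no region was called. Of the 764 regions called in the adjustment over all regions, 746 lay on the sex chromosomes. The next were chr12:94851001-94854200 near Flrt2, with 0.26 ± 0.075 (adjusted p = 0.0600, edgeR), and chr14:92746001-92750800 near Pcdh9, with -0.17 ± 0.055 (adjusted p = 0.0931, edgeR). With ChIP over input the 3 differences were -0.18, -0.016 and -0.15 in this order, where the median of all regions was -0.10. Their input reads differed by -0.086, 0.17 and -0.14 (unadjusted p = 0.192, 0.0436 and 0.0222, edgeR). Tested in place of ChIP reads, input reads had 176 of 3476 members at the unadjusted threshold, 61 of them higher in females. Over all regions it was 1856 of 22925, with 1105 higher in females. After adjustment, 1 member and 523 of all regions were called on input reads.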

How the data were processed

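ChIP-seq islands of H3K9me3 (22 libraries) and H3K36me3 (22 libraries) were used; groups came from sample titles. Per the submitters' processing notes and the methods, the authors trimmed reads with cutadapt, aligned them to GRCm38 (mm10) with Bowtie2 2.4.1 and called SICER islands per library against its input. For H3K9me3 they discarded blacklisted and multiply mapped reads, so reads that map to several copies of a repeat are missing from members; for H3K36me3 the sources used here do not state such filters. The deposited read counts per island are raw ChIP and input counts, the deposited p-values and q-values (FDR) compare them, and the deposited fold is their ratio over a constant per library.

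Members and lists were chosen with earlier results of these data known. Windows covered in at least 18 libraries were joined, and island reads were split by overlapped length. Neighbouring members shared an island in at least 1 library for 2845 members, so their values are not independent. The self-test drew data with known changes in 200 regions. After adjustment it recovered 80.0% of 1.5-fold and 1.5% of 1.2-fold changes in males (30060 regions), and 71.5% and 0% in females (25864 regions). Drawn counts were independent between regions, unlike those of neighbouring members. With 1.2-fold changes, 5.04% (males) and 4.88% (females) of the unchanged drawn regions were at the unadjusted threshold. Of the real regions it was 3.17% and 4.06%, so these recoveries hold for the drawn data only. Counts were tested with edgeR 4.0.16 (filterByExpr, TMM, quasi-likelihood, treatment as the only term within a sex) in R 4.3.3, with DESeq2 1.42.0 and limma 3.58.1 (pseudocount 1) as alternatives. Sequence work used Python 3.11.15, numpy 2.4.6 and pandas 2.3.3 on GRCm38.p6 (RefSeq) with GENCODE vM21 genes. Regions named are the members of smallest p (4 in each sex, 3 for sex, 2 for interaction), members among the 5 of highest fold, the 3 farthest from a gene start, those at the distance limit and those with most H3K36me3 islands. Island reads per library were 5.73 to 14.2 M for H3K9me3 and 1.70 to 4.79 M for H3K36me3; reads outside islands were not analysed here. No pair of libraries agreed within sampling noise (lowest chi-square over its degrees of freedom 2.255). One shared word and 1 member of high fold outside the 3 deserts of chromosome 12 are not reported here.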

Additional observations from a re-analysis of the deposited data

Results flagged for a closer look

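In groups of 5 or 6 pools, 1 pool stood apart from the rest of its group in 4 of 64 groups looked at, where chance alone gives about 1 in 20. Male ethanol replicate 1 had a listed island in the fewest members of its group, 5744, and male ethanol replicate 4 had the most ChIP reads per kb of member, 59.6, as the library with the most island reads. Female ethanol replicate 6 had the highest median H3K36me3 fold in its group, 1.27, over members with a listed H3K36me3 island. It also had the highest level of its group at chr5:6399001-6402000, 34.5 CPM, which still lay below each water pool.

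The ethanol difference differed between the sexes at an unadjusted p of 0.05 or lower in 5 of 12 named members with an interaction test (edgeR). The 12 were chosen for small p in 1 of the fits, 2 of the 5 in the interaction itself, and no adjusted p passed. The unadjusted p of the interaction was 0.00178 at chr8:97114401-97115800, 0.00275 at chr14:83710401-83712800, 0.00522 at chr5:6399001-6402000, 0.00912 at chr5:58876001-58879200 and 0.0183 at chr11:13208601-13211600 (edgeR quasi-likelihood test). The causes were not tested.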

How the results depend on the processing

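The count of members at the unadjusted threshold stayed within 1.5 times in each leave-one-out fit, from 130 to 180 for males, 147 to 195 for females, 133 to 166 for the interaction and 149 to 212 for sex. With islands at an FDR of 0.01 or lower, fewer members (290 to 1546) could be tested and the counts were 44, 17, 9 and 15. Over all regions they were 347 of 12410, 168 of 5804, 131 of 4049 and 574 of 4049. Regions from windows in all 22 libraries gave 74, 83, 69 and 91, with 3880 to 3896 members tested. Beside these were 597 of 26539, 617 of 26533, 543 of 26636 and 1600 of 26569 over all regions. ChIP over input gave 278 in males, DESeq2 gave 103 in females, and the library totals of the study gave 287 in females and 107 for sex. Over all regions these counts were 1783, 699, 2030 and 1696. Apart from the fewer members at that FDR, the cause was not tested. With the replicate number as a block the counts were 135, 152, 147 and 167, beside 809, 910, 857 and 2113 over all regions. Same-numbered pools did not deviate together (correlations -0.057 to 0.030), and no pool was closest to its own number, so the replicate block carries no pairing. Treatment and interaction had 0 members at an adjusted p of 0.05 or lower in each setting. For sex the count of members was 1, beside 764 over all regions. This count of members was 4 with DESeq2 (831 over all regions) and 4 with windows in at least 11 libraries (944 over all regions). It was 0 with the library totals, FDR islands, windows in all 22 libraries, ChIP over input, and adjustment over chr1-19 alone, which was added after seeing the data. Leaving out 1 pool gave 0 to 4, with 0 without male ethanol replicate 6, female ethanol replicate 1 or female ethanol replicate 6. The interaction had 1 of 106 members higher with ChIP over input and 130 of 136 with the library totals, against 74 of 146; over all regions these were 22 of 662 and 888 of 945. For sex they were 2 of 223 and 25 of 107 in members, and 16 of 1603 and 1044 of 1696 over all regions. Of 317 values of named members under other settings, 294 kept direction and side of the threshold, 20 kept direction alone and 3 changed sign, each with ChIP over input, to 0.14 at chr5:58876001-58879200, 0.20 at chr5:6399001-6402000 and -0.016 at chr12:94851001-94854200. The median of all regions was 0.18, 0.043 and -0.10 in these fits, so relative to it the first stayed lower and the third higher. The number of members was 4269 with windows in all 22 libraries, 3642 with FDR islands, 10518 at 300 kb, 2318 at 1000 kb, 2552 with lncRNA genes added and 19 with all annotated genes. The spread between pools was larger in shorter members, which also had fewer reads.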
